A study of Mus musculus with 12 samples.

Results

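The CIDE genes Cidea, Cideb and Cidec, which encode the lipid droplet fusion proteins, were followed in mouse liver by RNA sequencing of normal-diet, high-fat-diet and exercised animals. The members were taken by gene symbol from a table of read counts, 3 of the 55291 genes it holds, and all 3 were measured in each of 12 libraries. CIDE proteins gather where lipid droplets touch and let neutral lipid pass from the smaller droplet into the larger one, so that droplets grow. Cidea is best known from brown fat and Cidec, also called Fsp27, from white fat; both are also known from fatty liver, where Cidec is a target of the nuclear receptor PPARγ. Cideb is the usual member of hepatocytes and is tied to the lipid loading and export of very-low-density lipoprotein (VLDL).

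The animals were male C57BL/6 mice, an inbred laboratory strain, that entered at 6 weeks of age and adapted for 1 week. The NC group had normal diet and the other 3 groups the high-fat diet D12492. After 8 weeks the high-fat animals were divided into HFD, which stayed without exercise, and HFD+AE and HFD+RE, which exercised for at least 12 weeks on the same diet. AE and RE are not spelled out in the labels; aerobic and resistance exercise is the usual reading. Groups held 13 animals in NC and 8 in each of the others, and 3 libraries of total liver RNA from each group were analysed here (NC 2, 4 and 5, HFD 1, 2 and 3, HFD+AE 1, 2 and 3, HFD+RE 3, 4 and 5). The labels do not tie a library to an animal. The p-values therefore cover only the spread from library to library, which may be technical.

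The libraries held 44373214 to 77665729 counts. All 8 hepatocyte markers were tested, and albumin alone took 4.25% to 9.82% of the counts. HFD+AE 3 and HFD+RE 3 stood apart from the other libraries of their groups on the first principal component. CIDE results that change without them are therefore given both ways. For all other named genes and the gene lists, the exercise comparisons are given only with them. The HFD libraries also differed from NC in mitochondrial ribosomal RNA (1.76% to 3.26% of counts, against 0.708% to 0.924%) and in their relation of level to gene length (Spearman's rho -0.288 to -0.153, against 0.083 to 0.205). HFD+AE lay at 0.771% to 0.867% and at a rho of -0.032 to 0.292, so its comparison with HFD carries the same differences. HFD+RE ranged from 0.685% to 1.71% and from -0.307 to 0.225, and overlapped HFD in rho. The part of these differences in the results below was not tested beyond the corrections for length and GC content. In whole liver, fewer cells of a type and less RNA per cell cannot be told apart.

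Positions of the genes are on the mm10 build. Cideb (ENSMUSG00000022219.10) spans chromosome 14, 55754050 to 55758458, on the minus strand, with 1488 exon bases. Of these, 1136 (76.3%) are also exon of Nop9, a gene on the plus strand at 55745693 to 55755500. The strand setting of the counting is not given in the sources used here, so reads from the shared bases of Cideb and Nop9 may not be told apart. Cidec (ENSMUSG00000030278.11) spans chromosome 6, 113424634 to 113435760, on the minus strand, with 1856 exon bases.

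The promoter table of RefSeq (GRCm38.p6) held Cideb and Cidec. Their windows are printed to set the gene that did not pass the test beside the one that rose in HFD. They read 5′ to 3′ on the minus strand, with exon bases of the same gene trimmed at the start-site side. The Cidec windows lie before 2 of its start sites, at chr6:113435761-113436010 and chr6:113434765-113435014. Cidec window 2 lies within the span of the gene, so it may be transcribed from the other start site. The Cideb window lies at chr14:55758459-55758674 and ends 34 bases before the RefSeq start site. Capitals mark the match found by the motif search.
Cidec window 1: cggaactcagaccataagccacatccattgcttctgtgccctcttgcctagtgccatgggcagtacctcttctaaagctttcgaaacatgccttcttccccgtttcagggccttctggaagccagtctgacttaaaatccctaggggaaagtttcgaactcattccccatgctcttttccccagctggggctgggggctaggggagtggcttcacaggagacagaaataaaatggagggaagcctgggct
Cidec window 2: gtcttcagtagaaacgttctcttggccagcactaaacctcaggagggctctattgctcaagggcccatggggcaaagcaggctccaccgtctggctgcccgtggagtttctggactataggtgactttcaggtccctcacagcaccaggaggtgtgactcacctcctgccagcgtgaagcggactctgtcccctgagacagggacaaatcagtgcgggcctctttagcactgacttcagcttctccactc
Cideb: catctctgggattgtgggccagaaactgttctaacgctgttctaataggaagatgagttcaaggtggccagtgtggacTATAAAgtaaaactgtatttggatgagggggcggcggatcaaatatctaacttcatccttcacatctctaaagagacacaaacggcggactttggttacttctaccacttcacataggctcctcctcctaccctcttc
Both strands were searched for AGGTCA (a nuclear receptor site), its direct repeat spaced by 1 base (the kind of site PPAR dimers bind, which holds the former), CACGTG (an E-box), TGACG (the core of a cAMP response element), TATAAA (the TATA box) and CCAAT (the CCAAT box). The search found 1 match, TATAAA at base 79 of the 216 bases of the Cideb window, well before its end at the start-site side. This motif is held by 9.8% of 32851 promoter windows of the same length, and its use in Cideb was not tested. The other motifs had no match in the 3 windows. Only exact matches were counted, and sites that differ from a motif by some bases were not sought. The lack of a match therefore does not show that a window lacks such a site, least of all for the long direct repeat. Among all promoter windows of the Cidec length, 14% hold the nuclear receptor site, 0.0335% the direct repeat, 6.02% the E-box, 17.8% the cAMP core, 12.4% the TATA box and 33.8% the CCAAT box. In windows cut to the Cideb length the shares of those without a match were 12.3%, 0.0304%, 4.89%, 14.5% and 30.5% in the order searched.

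Cidea (ENSMUSG00000024526.9; mm10, chromosome 18, 67343604 to 67367785, plus strand, 1115 exon bases) was close to the limit of detection in NC and clearly present in HFD. Its raw counts were 2, 4 and 12 in NC, 361, 268 and 308 in HFD, 48, 6 and 8 in HFD+AE and 16, 30 and 96 in HFD+RE. As CPM, the count scaled by library total and TMM factor, Cidea stood at 0.0372, 0.0870 and 0.158 in NC and at 7.03, 5.96 and 4.41 in HFD. It stood at 0.748, 0.106 and 0.165 CPM in HFD+AE and at 0.303, 0.545 and 1.60 CPM in HFD+RE. Every HFD library lay above all 9 others, HFD+AE 2 was within the NC range, and HFD+RE 5 was the highest outside HFD. Cidea reached the filter's level of 0.178 CPM in 0 of 3 NC, 3 of 3 HFD, 1 of 3 HFD+AE and 3 of 3 HFD+RE libraries, so it entered the test through the groups where it was high.

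Cidec, the white-fat member, was readily counted in every library and was also highest in HFD. It stood at 5.74, 8.27 and 11.1 CPM in NC, at 49.0, 26.8 and 27.4 in HFD, at 6.79, 6.70 and 8.71 in HFD+AE and at 9.95, 8.83 and 11.1 in HFD+RE. HFD 1 was the highest library, and the lowest HFD library was still above all those of the other groups. The HFD+AE libraries all lay within the NC range, and HFD+RE 5 exceeded the highest NC library only past the printed digits. HFD+RE 4 and 5 lay on the HFD side of the first principal component, at 50.4 and 52.6. HFD ranged from 23.0 to 80.8 there, and NC from -72.7 to -40.3. These HFD+RE libraries held 8.83 and 11.1 CPM of Cidec, while HFD+RE 5 was the highest outside HFD for Cidea. The relation of this component to either level was not tested.

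Cideb, the hepatocyte member, was the most even of the 3. It stood at 49.4, 45.2 and 43.6 CPM in NC, at 39.7, 46.0 and 34.2 in HFD, at 44.1, 48.7 and 74.9 in HFD+AE and at 43.9, 50.5 and 42.5 in HFD+RE. The groups overlapped in every comparison, and HFD+AE 3 lay above all other libraries.

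**Figure D1:**
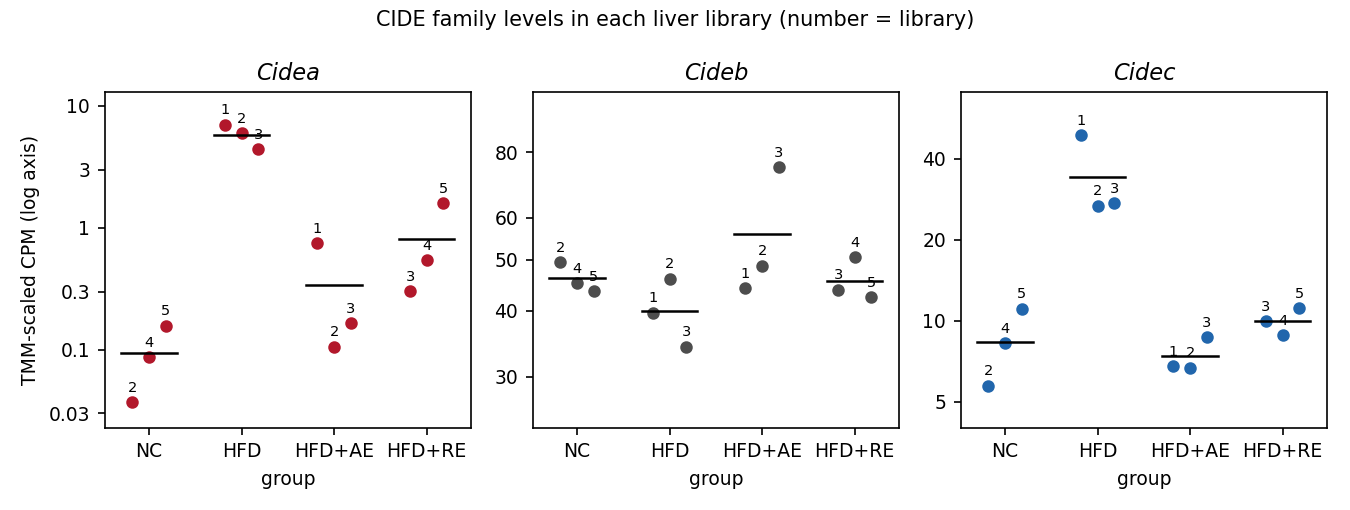
Level of Cidea, Cideb and Cidec in each of the 12 libraries (y axis, TMM-scaled CPM on a log axis with its own range in each panel; x axis, group; the number beside a point is the library, the line the mean of 3 libraries). The HFD libraries stand above all others for Cidea (4.41 to 7.03 CPM) and Cidec (26.8 to 49.0 CPM), while the groups overlap for Cideb.

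Levels of different genes were compared per length, as TPM, which divides each count by the gene's exon length and scales every library to the same sum. In NC the order was Cideb at 72.4 ± 4.85, Cidec at 10.5 ± 3.32 and Cidea at 0.197 ± 0.125 TPM (SD, n = 3). HFD kept that order of means, at 61.0 ± 8.49, 42.4 ± 16.6 and 11.8 ± 2.87 TPM (SD, n = 3). Cideb thus remained the first in mean level where Cidec and Cidea were highest. HFD+AE had 84.4 ± 12.1 TPM of Cideb, 9.07 ± 0.201 of Cidec and 0.721 ± 0.791 of Cidea (SD, n = 3). HFD+RE had 66.8 ± 8.62, 11.8 ± 2.69 and 1.55 ± 1.30 TPM in the same order (SD, n = 3). For Cidea the SD of HFD+AE exceeded its mean.

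On the high-fat diet, Cidea and Cidec rose and Cideb did not pass the test. That is 2 of 3 members higher, where 8.38% of the 18305 tested genes were called higher in HFD than in NC (15.6% in either direction), at a Benjamini-Hochberg adjusted p below 0.05 over all tested genes. Cidea rose from 0.0940 ± 0.0606 to 5.80 ± 1.32 CPM (SD, n = 3), a fitted log2 change of 5.84 (SE 0.82, 95% interval 4.08 to 7.61, edgeR adjusted p = 0.00241). This was the 13th largest rise among the tested genes, and came to 6.52 without NC 5. The rank is no separate support, since Cidea entered the test through the groups where it was high and had few counts in NC. With 18 counts in NC against 937 in HFD, counting error alone left the ratio of library-scaled levels between 28.7 and 121 around 55.0 (exact 95% interval, 2 counts taken as 1 fragment).

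Cidec rose from 8.37 ± 2.68 to 34.4 ± 12.7 CPM (SD, n = 3), a log2 change of 2.04 (SE 0.28, interval 1.43 to 2.64, edgeR adjusted p = 0.00221) and a ratio of means of 4.11. Cideb moved from 46.1 ± 3.03 to 40.0 ± 5.92 CPM (SD, n = 3), a log2 difference of -0.21 (SE 0.20, interval -0.64 to 0.23, edgeR adjusted p = 0.489). Groups without overlap were common in this comparison, at 23.9% of tested genes with HFD higher, and Cidea and Cidec were among them. Both rises passed the threshold in each of 21 alternatives, and with trends on length and GC content removed they came to 5.39 and 1.64. Cideb passed in 1, with trends on length and GC content removed (-0.57, adjusted p = 0.0432).

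AE exercise was compared with the same HFD libraries. Cidec fell and Cidea missed the threshold narrowly, so 1 of 3 members was called, against 0.0328% of tested genes called lower (6 genes) and 0.0492% in either direction. That background depends on the fit: of all genes, 9 were called as reported, 4253 without HFD+AE 3 and HFD+RE 3, 0 without HFD 1 and 2047 with DESeq2. Cidec fell by 2.22 on the log2 scale (SE 0.28, interval -2.83 to -1.61, edgeR adjusted p = 0.0222), to 7.40 ± 1.14 CPM (SD, n = 3). Its call was lost without NC 4 (adjusted p = 0.0567), HFD 1 (0.104), HFD+AE 1 (0.122) or HFD+AE 2 (0.176), with log2 changes from -2.37 to -1.88 over the 12 fits that each left out 1 library.

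Cidea differed by a log2 of -4.05 between HFD+AE and HFD (SE 0.72, interval -5.60 to -2.50, edgeR adjusted p = 0.0536), at 0.340 ± 0.355 CPM in HFD+AE (SD, n = 3). Without HFD+AE 1 the difference was -5.40. It passed in 11 of 21 alternatives, among them DESeq2 (adjusted p = 9.87e-07), the fit without HFD+AE 3 and HFD+RE 3 (0.00944), and those without HFD 2 (0.0243), HFD+RE 3 (0.0156) or HFD+RE 5 (0.0427). Cideb was at 55.9 ± 16.6 CPM in HFD+AE (SD, n = 3), a log2 difference of 0.48 (SE 0.20, interval 0.04 to 0.92, edgeR adjusted p = 0.156). Without HFD+AE 3, its highest library, that difference was 0.21 (adjusted p = 0.408). Cidea and Cidec did not overlap between HFD+AE and HFD, as 16.3% of tested genes did not with HFD+AE lower.

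RE exercise gave no call for any of the 3 members with edgeR, where 0.0109% of tested genes were called in either direction (2 genes) and 1605 had an unadjusted p below 0.05. Cidec differed from HFD by a log2 of -1.79 (SE 0.28, interval -2.39 to -1.19, unadjusted p = 2.04e-05, adjusted p = 0.0644), at 9.96 ± 1.14 CPM in HFD+RE (SD, n = 3). Cidea differed by -2.82 (SE 0.67, interval -4.26 to -1.38, unadjusted p = 0.000965, adjusted p = 0.282), at 0.815 ± 0.688 CPM (SD, n = 3), and by -3.76 without HFD+RE 5. Cideb differed by 0.19 (SE 0.20, interval -0.25 to 0.63, adjusted p = 0.809). All HFD+RE libraries were below all HFD libraries for Cidea and Cidec, as for 6.99% of tested genes with HFD+RE lower. DESeq2 called both (adjusted p = 0.00363 for Cidea and 3.21e-06 for Cidec), and edgeR called Cidec without NC 2 (0.0454) or HFD 2 (0.0443).

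**Figure D2:**
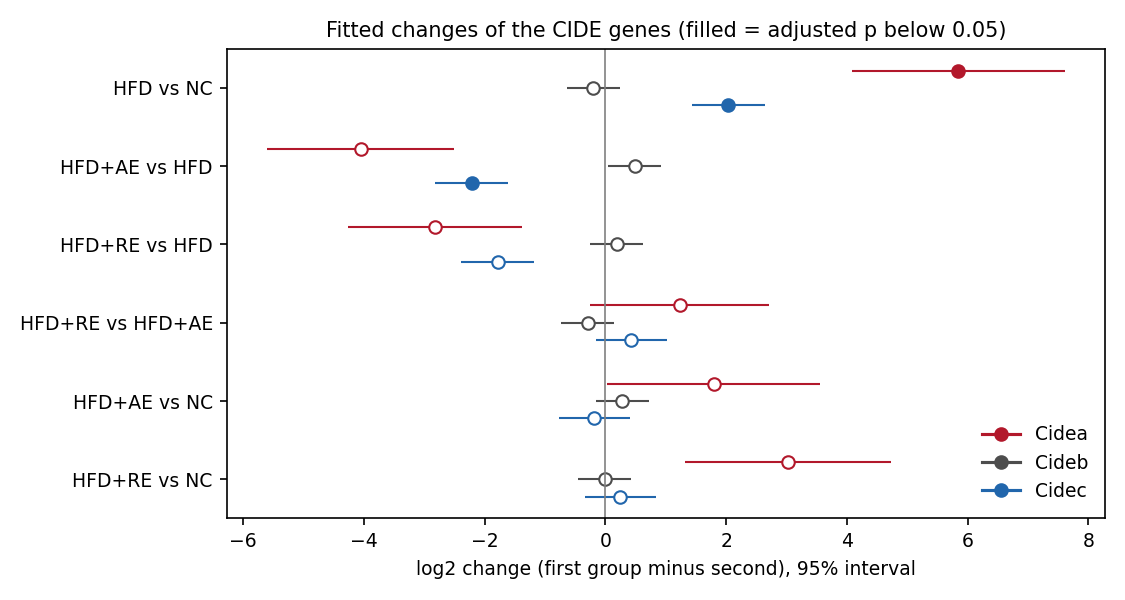
Fitted log2 change of each CIDE gene (x axis, first group minus second; points, edgeR estimates; bars, 95% intervals; filled, adjusted p below 0.05) in 6 comparisons (y axis). Filled points are Cidea and Cidec in HFD vs NC and Cidec in HFD+AE vs HFD, and the intervals of Cidea are the widest.

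The exercise groups were also set against each other and against NC, with no member called by edgeR in any of the 3 comparisons. Between HFD+RE and HFD+AE, where 0% of tested genes were called (1468 genes at an unadjusted p below 0.05, and 24 with DESeq2), Cidea differed by a log2 of 1.23 (interval -0.25 to 2.72, adjusted p = 0.609), Cideb by -0.29 (-0.73 to 0.15, adjusted p = 0.645) and Cidec by 0.43 (-0.16 to 1.02, adjusted p = 0.63). The Cidea value was 0.29 without HFD+RE 5 and 2.59 without HFD+AE 1. No member had an unadjusted p below 0.05 there, and DESeq2 called none. Each HFD+RE library was nevertheless above each HFD+AE library for Cidec, as for 5.88% of tested genes.

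Against NC, where 1.38% of tested genes were called in HFD+AE, Cidec differed by a log2 of -0.18 (interval -0.77 to 0.41, adjusted p = 0.828) and Cideb by 0.28 (-0.16 to 0.72, adjusted p = 0.6). Cidea differed by 1.79 in HFD+AE (interval 0.03 to 3.56, unadjusted p = 0.0465, adjusted p = 0.345), a value that came to 0.44 without HFD+AE 1 and 2.48 without NC 5. DESeq2 called none of the 3 in that comparison. In HFD+RE, where 3.96% of tested genes were called, Cidea differed from NC by 3.03 (SE 0.79, interval 1.32 to 4.73, adjusted p = 0.0502), with every HFD+RE library above every NC library, as for 13.7% of tested genes.

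That difference in Cidea passed without HFD+AE 1 (adjusted p = 0.0288), HFD+AE 3 (0.0424) or HFD+RE 3 (0.0121), without HFD+AE 3 and HFD+RE 3 together (0.00861), and with DESeq2 (0.00105). By counting error alone the Cidea ratio was 8.26 (exact 95% interval 4.11 to 18.8) for HFD+RE over NC and 3.58 (1.66 to 8.55) for HFD+AE over NC. Single libraries weigh heavily in both: HFD+RE 5 gave 96 of 142 counts and HFD+AE 1 gave 48 of 62. The fitted log2 difference of HFD+RE from NC was 2.08 without HFD+RE 5 and 3.70 without NC 5. Cidec and Cideb differed between HFD+RE and NC by 0.25 (interval -0.34 to 0.84, adjusted p = 0.582) and -0.01 (-0.45 to 0.43, adjusted p = 0.974).

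The make-up of the CIDE transcripts was described by the share of each member in their summed level per kilobase, in which library size cancels. Cideb took 91.4%, 87.0% and 82.7% in NC, 44.9%, 61.0% and 55.1% in HFD, 87.3%, 89.8% and 91.2% in HFD+AE and 84.0%, 86.6% and 79.4% in HFD+RE. Cidec took 8.51% to 16.9% in NC, 28.4% to 44.5% in HFD, 8.51% to 10.8% in HFD+AE and 12.1% to 16.6% in HFD+RE. Cidea took 0.0917% to 0.399% in NC, 9.47% to 10.6% in HFD, 0.262% to 1.97% in HFD+AE and 0.773% to 3.98% in HFD+RE. All 3 shares in HFD were apart from those of the other groups, with Cideb lower and the other two higher.

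In HFD, Cidea took 10.2 ± 0.637% and Cidec 36.1 ± 8.05% (SD, n = 3). For each member, the share in HFD set against NC, HFD+AE or HFD+RE gave an exact two-sided permutation p = 0.1, the smallest that 3 against 3 libraries allow, and 0.15 adjusted over 18 tests, so none passed. The 3 shares sum to 100%, so a lower Cideb share follows from the higher Cidec and Cidea levels and is no separate result. The summed level was 83.1 ± 1.47 TPM in NC, 115 ± 22.1 in HFD, 94.2 ± 11.4 in HFD+AE and 80.1 ± 9.87 in HFD+RE (SD, n = 3). With Cideb divided only by the 352 exon bases it does not share with Nop9, an alternative chosen after seeing the data, Cideb took 96.6% in NC, 82.7% in HFD, 97.3% in HFD+AE and 95.5% in HFD+RE, and in HFD Cidec took 13.5% and Cidea 3.76 ± 0.498% (SD, n = 3). The sizes of all 3 shares therefore depend on how the shared bases were counted. Nop9 itself was at 16.2 ± 2.31 CPM in NC and 17.1 ± 0.958 in HFD (SD, n = 3, edgeR adjusted p = 0.809).

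**Figure D3:**
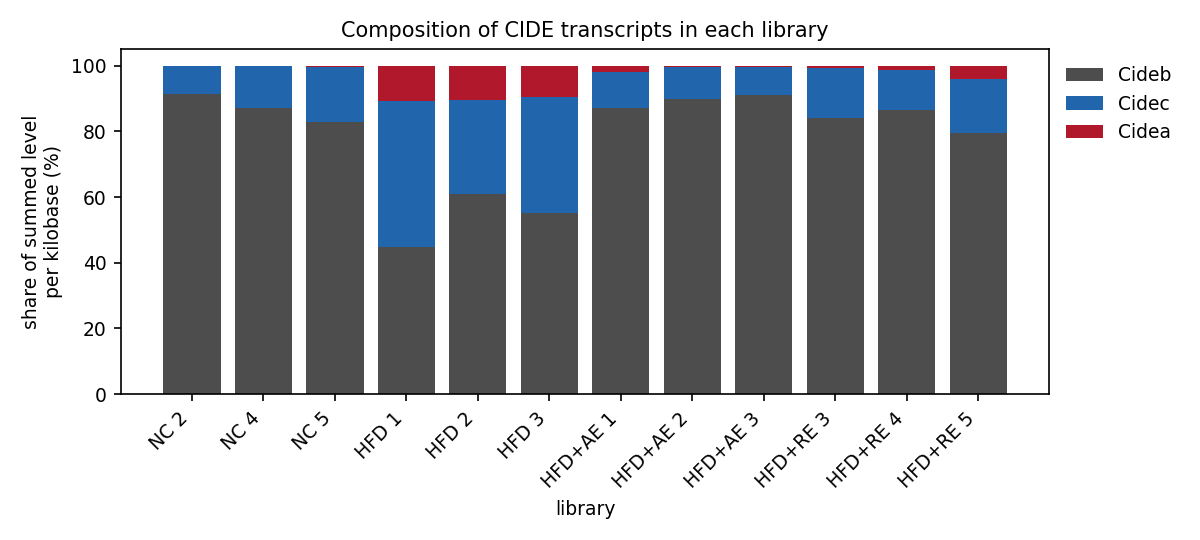
Share of Cideb, Cidec and Cidea (y axis, percent of their summed level per kilobase) in each of the 12 libraries (x axis). Cideb takes 79.4% to 91.4% outside HFD and 44.9% to 61.0% in the HFD libraries, where Cidea takes 9.47% to 10.6%.

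Genes reported to regulate the CIDE family were next examined as a list of 15, of which 3 rose, 1 fell and 11 did not pass in HFD vs NC (median log2 change 0.21, against 0.01 over all tested genes). For this and the lists below, 8.38% of all tested genes were called higher, 7.19% lower and 15.6% either way. Pparg, the nuclear receptor of fat cell formation that acts on Cidec, rose from 7.25 ± 1.60 to 14.1 ± 2.33 CPM (SD, n = 3; log2 0.96, SE 0.21, edgeR adjusted p = 0.0141). Srebf1, which drives lipid synthesis, rose by 1.26 (adjusted p = 0.0423), Ppara, which drives fat burning in liver, rose by 0.55 (0.0486), and Hnf4a, a factor of hepatocyte identity, fell by 0.84 (0.0165). These calls passed in 18, 14, 10 and 18 of 21 alternatives. Creb3l3, a liver factor also linked to CIDE genes, was at -0.15 (adjusted p = 0.639).

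Leaving out 1 library ended the Pparg call for NC 4 (adjusted p = 0.0506) or HFD 1 (0.0683) and the Hnf4a call for HFD 1 (0.0869) or HFD 3 (0.0811). The Srebf1 call was lost without NC 2 (0.0793), NC 4 (0.0657), NC 5 (0.0778), HFD 1 (0.128), HFD 3 (0.131) or HFD+AE 2 (0.0564). The Ppara call was lost without any 1 of the NC or HFD libraries or of HFD+AE 1, HFD+AE 2 and HFD+RE 4 (0.0626 to 0.156). In the exercise groups Pparg differed from HFD by -0.14 in HFD+AE (adjusted p = 0.69) and -0.39 in HFD+RE (0.609), at 12.8 ± 0.488 and 10.7 ± 1.72 CPM (SD, n = 3). The other called regulators had higher means than in HFD. In HFD, HFD+AE and HFD+RE, Srebf1 was at 234 ± 27.9, 273 ± 86.1 and 454 ± 145 CPM (SD, n = 3). In that order Ppara was at 192 ± 15.7, 248 ± 12.7 and 195 ± 37.6 CPM, and Hnf4a at 585 ± 116, 871 ± 91.6 and 622 ± 13.8 (SD, n = 3). None of them was called against HFD. Against NC, Pparg differed by 0.82 in HFD+AE (adjusted p = 0.0784), where Cidec differed by -0.18.

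Among droplet coats and CIDE partner proteins, 3 of 17 tested genes rose, none fell and 14 did not pass in HFD vs NC (median log2 change 0.18), a called share near the 15.6% of all tested genes. Clstn3, whose locus also encodes a droplet protein of fat cells that acts against CIDE proteins, rose from 16.0 ± 3.67 to 62.1 ± 6.72 CPM (SD, n = 3; log2 1.95, SE 0.24, edgeR adjusted p = 0.00132). Counts per gene do not separate its transcripts. Fitm1, which helps to package lipid into droplets, rose by 1.95 (0.0118), and Plin4, a perilipin coat protein, rose by 1.28 (0.0169).

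Clstn3 passed in 21 of 21 alternatives. Fitm1 was lost without NC 4 (adjusted p = 0.0506) or HFD 3 (0.051), and Plin4 without NC 2 (0.0549), NC 4 (0.0731) or HFD 3 (0.08). Plin2, the main droplet coat of hepatocytes, was at 301 TPM in NC and 323 in HFD (log2 0.14, adjusted p = 0.745), and Plin5, a coat protein of oxidative tissues, was at 66.8 and 52.4 (log2 -0.31, adjusted p = 0.562). Both stood above or near Cideb per length, and neither passed the test where Cidea and Cidec did. Plin1, the coat of fat cell droplets and a partner of Cidec, had 0 counts in all NC and HFD libraries. In HFD+AE and HFD+RE, Clstn3 differed from HFD by -1.15 (adjusted p = 0.0574) and -0.76 (0.339), and Plin4 by -0.52 (0.269) and -1.30 (0.261).

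The list of droplet lipolysis had 7 tested genes, with none higher, 1 lower and 6 not called in HFD vs NC (median log2 change -0.05), again near the 15.6% of all tested genes. The gene that fell was Abhd5, the activator of the lipase Pnpla2, at -0.60 (edgeR adjusted p = 0.0287). It passed in 11 of 21 alternatives, and was lost without any 1 of NC 2, NC 4, NC 5, HFD 1 or HFD 3 (0.0603 to 0.139). Pnpla2 was at -0.13 (0.799) and its inhibitor G0s2 at 1.52 (0.106).

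Triglyceride synthesis had 17 tested genes, of which 4 rose, 3 fell and 10 did not pass in HFD vs NC (median log2 change -0.09), against 8.38% and 7.19% of all tested genes called higher and lower. Mogat1, a monoacylglycerol acyltransferase, rose from 0.389 ± 0.263 to 5.05 ± 0.790 CPM (SD, n = 3; log2 3.66, SE 0.53, edgeR adjusted p = 0.00268) and passed in 21 of 21 alternatives (log2 4.35 without NC 5). Gpat3, which acts at the first step of glycerolipid synthesis, rose by 2.24 (0.0215; 3.49 without NC 5), and Lpin1, a phosphatidate phosphatase, fell by 1.77 (0.0188). The Gpat3 call was lost without NC 2 (0.0615), NC 4 (0.0819), HFD 1 (0.0596) or HFD 3 (0.0752), and the Lpin1 call without NC 2 (0.0613), HFD 1 (0.0616) or HFD 3 (0.0708). Mogat1 differed from HFD by -1.70 in HFD+AE (adjusted p = 0.0704) and -1.93 in HFD+RE (0.282). Dgat2, the main last-step enzyme in liver, was at 0.33 in HFD vs NC (0.243).

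VLDL assembly and COPII export, the pathway tied to Cideb, had 21 tested genes, of which 1 rose, 5 fell and 15 did not pass in HFD vs NC (median log2 change -0.32), against 8.38% and 7.19% of all tested genes. Apoa4, an apolipoprotein, rose from 39.6 ± 13.7 to 301 ± 93.8 CPM (SD, n = 3; log2 2.93, edgeR adjusted p = 0.0109) and passed in 21 of 21 alternatives. Mttp, the protein that loads lipid onto apolipoprotein B, fell from 372 ± 26.5 to 172 ± 61.7 CPM (SD, n = 3; log2 -1.12, SE 0.25, edgeR adjusted p = 0.0163). Sec24d, a cargo adaptor of COPII vesicles, fell by 1.37 (0.0221). Mttp no longer passed with NC 4 (0.0544), HFD 1 (0.0773) or HFD 3 (0.0786) left out, nor Sec24d without NC 4 (0.0887), HFD 1 (0.0901) or HFD 3 (0.109).

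Cideb was not called in the comparison in which these genes of its export pathway were; the difference between them was not tested. Apob, the structural protein of VLDL, was at -0.96 (adjusted p = 0.107), Sar1b, the COPII GTPase, at -0.09 (0.745), and Scap, the SREBP escort, at -0.35 (0.249). Mttp differed from HFD by 1.08 in HFD+AE (0.0609) and 0.40 in HFD+RE (0.669).

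In HFD+AE vs HFD and HFD+RE vs HFD, edgeR called 0 genes of each of the 5 lists. These list counts were not read without HFD+AE 3 and HFD+RE 3, where 4253 of all genes were called in HFD+AE vs HFD. At an unadjusted p below 0.05, in the order regulators, coats, lipolysis, synthesis and export, 3, 3, 1, 5 and 9 genes passed in HFD+AE vs HFD, where 26.4% of all tested genes did, and 2, 2, 0, 1 and 2 in HFD+RE vs HFD, where 8.77% did. DESeq2 called 2, 1, 0, 2 and 1 in the first, out of 2047 genes in all, and 0, 1, 0, 1 and 0 in the second, out of 186. The list medians there lay between -0.26 and 0.41 for HFD+AE and between -0.20 and 0.25 for HFD+RE, against 0.00 and 0.04 over all tested genes.

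**Figure D4:**
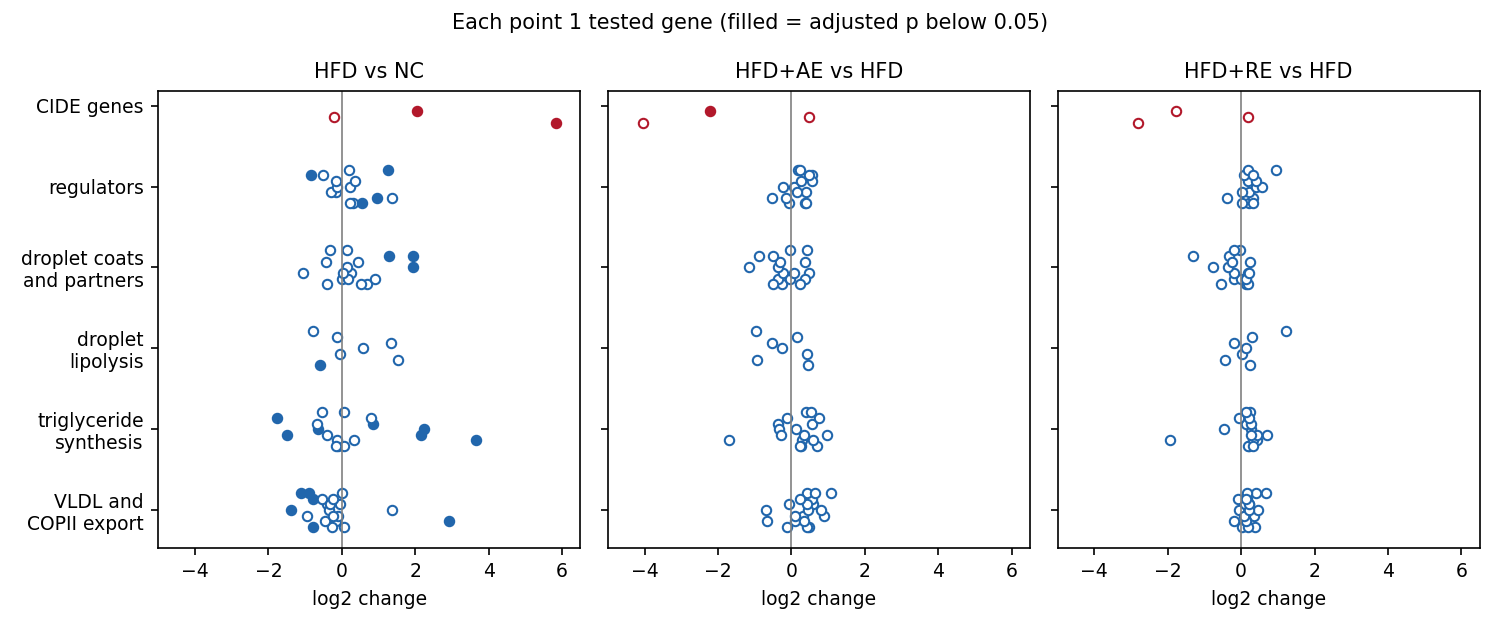
Log2 change (x axis) of each tested gene of the CIDE family and of 5 related gene lists (y axis) in 3 comparisons (panels); filled points have an adjusted p below 0.05. In HFD vs NC the CIDE genes Cidea (5.84) and Cidec (2.04) are filled beside 4, 3, 1, 7 and 6 genes of the lists, and in the exercise panels Cidec in HFD+AE is the one filled point.

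Since Cidea and Cidec are known from fat tissue, 10 fat cell markers were read beside them, and 4 had enough counts to test. Of these, 3 rose in HFD vs NC, where 8.38% of all tested genes were called higher. They were Plin4, already counted among the droplet coats, Cfd and Fabp4. Cfd, a complement factor secreted by fat cells, rose by a log2 of 4.63 (edgeR adjusted p = 0.00451), and by 3.24 without HFD 2. Fabp4, a fatty acid carrier, rose by 0.76 (edgeR adjusted p = 0.048), passing in 10 of 21 alternatives. Adrb3, also tested, was at 3.19 ± 1.09 CPM in NC and 5.27 ± 0.613 in HFD (SD, n = 3) and was not called. The markers summed to 32.4 to 52.6 CPM in NC, 97.1 to 140 in HFD, 54.7 to 97.5 in HFD+AE and 46.5 to 57.5 in HFD+RE. HFD and HFD+AE overlapped, with HFD+AE 1 at 97.5 just above HFD 1 at 97.1. Most of the sum was Plin4, at 34.0 ± 10.5 CPM in NC and 82.5 ± 11.7 in HFD (SD, n = 3). Lep and Ucp1 had 0 counts in all 12 libraries, Plin1 had 0 in HFD, and Adipoq had 0, 0 and 2 counts in the HFD libraries, where Cidec had 2519, 1204 and 1916. Aqp7, a glycerol channel of fat cells, had 0 counts in each NC library and 18, 11 and 10 in HFD, and Retn had 0 in each NC library and 0, 4 and 2 in HFD. Neither had enough counts to test.

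Cfd reached 502, 2025 and 389 counts in the HFD libraries, so HFD 2 was highest in Cfd whereas HFD 1 was highest in Cidea and Cidec. The calls of Fabp4 were lost without any 1 of the NC libraries, HFD 1, HFD 3, HFD+AE 1, HFD+AE 2, HFD+RE 4 or HFD+RE 5 (adjusted p from 0.0544 to 0.212). Of other cells' markers, 5 of 9 lymphocyte markers rose (sum 7.88 to 11.3 CPM in NC and 11.0 to 50.3 in HFD), where 8.38% of tested genes were called higher. With 7.19% of tested genes called lower, 2 of 8 hepatocyte and 1 of 9 macrophage markers fell. Of 5 red blood cell markers 1 fell, Alas2, a heme synthesis enzyme (log2 -0.95, edgeR adjusted p = 0.034), while the 4 globin genes had log2 differences from 0.73 (Hbb-bt) to 1.63 (Hbb-bs, adjusted p = 0.0601) that did not pass, and the list's median was 0.78. The part of these markers in the CIDE results was not tested.

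B430212C06Rik, a minus-strand gene of chromosome 18 at 67321209 to 67344103, overlaps the start of Cidea with no shared exon base. It was read after its values were seen and outside the naming rule. It had 0, 0 and 4 counts in NC, 24, 18 and 37 in HFD, 3, 4 and 0 in HFD+AE and 6, 4 and 17 in HFD+RE. It rose in HFD vs NC by 4.31 (SE 0.95, edgeR adjusted p = 0.0153, passing in 16 of 21 alternatives), and differed from HFD by -3.45 in HFD+AE (0.0625) and -1.55 in HFD+RE (0.59). That call was lost without NC 2 (0.0545), NC 4 (0.0606), HFD 1 (0.056) or HFD 3 (0.0648). NC 5 was the 1 NC library with counts, so its size rests on that library. HFD was its highest group, as for Cidea, with the strand setting of the counting not given.

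Across the 12 libraries, log2 CPM of Cidea and Cidec had a Pearson r of 0.874 (Spearman's rho 0.825). Cideb had an r of -0.52 with Cidea and -0.496 with Cidec (rho -0.531 and -0.685). These values describe libraries that share groups and 1 count table, and carry no p. The genes most like Cidea among 10393 candidates were Pigp (r 0.936, rho 0.923), Sat1 (0.925, 0.923), Llph (0.923, 0.902), Clstn3 (0.915, 0.923) and Pou2f2 (0.912, 0.776), each highest in an HFD library. Clstn3, on the list of CIDE partners, was 4th by likeness to Cidea. Both genes rose in HFD vs NC in these same libraries, so the likeness is no separate result.

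For Cidec the closest genes were Lars2 (r 0.905, rho 0.86), Zrsr2 (0.904, 0.755), Anxa2 (0.9, 0.671), Mettl17 (0.895, 0.93) and Samd4 (0.893, 0.853). The first 4 were highest in HFD 1, as Cidec was. For Cideb they were Alg1 (r 0.973, rho 0.846), Tmprss6 (0.957, 0.93), Myo18a (0.95, 0.839) and Clptm1 (0.945, 0.839). These 4 were highest in HFD+AE 3, the library that also held the highest Cideb and whose relation of level to GC content was the highest of the 12 (rho 0.496).

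**Figure D5:**
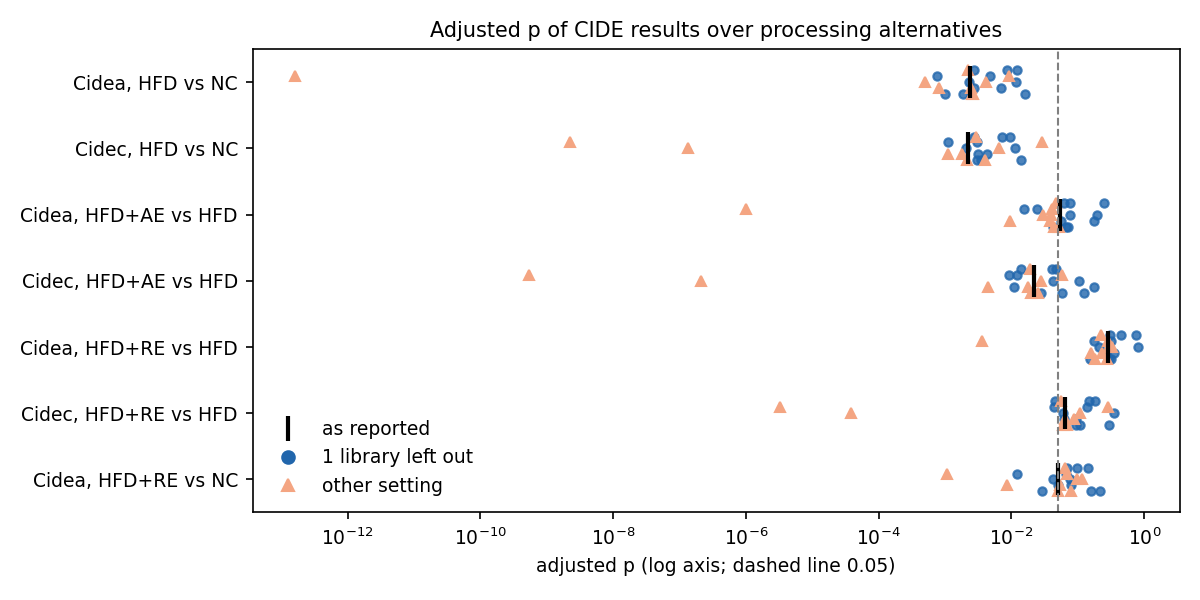
Adjusted p (x axis, log scale; dashed line, 0.05) of 7 CIDE results (y axis) as reported (black bar), with 1 library left out (circles) and under 9 other settings (triangles). The HFD vs NC results of Cidea and Cidec lie left of the line throughout, up to 0.0162 and 0.0284, while the other 5 results have points on both sides.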

How the data were processed

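Total RNA of liver was sequenced in 12 libraries. The deposited values are raw counts of reads per gene, counted with featureCounts 2.0.6, per the file headers. The tools fastp, HISAT2 2.2.1 and DESeq2 1.40.1 and the mm10 build are named per the submitters' processing notes. For strandedness, multi-mapping and annotation release the setting is not given in the sources used here. Between 64.9% and 73.7% of the values from 1 to 50 were even in each library, so 2 counts were taken as 1 fragment for counting intervals, which cover counting error only. No 2 libraries of a group agreed within sampling noise (smallest chi-square per degree of freedom 62.4).

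All 12 libraries entered 1 edgeR 4.0.16 quasi-likelihood model in R 4.3.3 (TMM, robust, low-count filter by group), with a mean per group. Adjusted p-values are Benjamini-Hochberg values over 18305 tested genes, called below 0.05, and are from edgeR unless DESeq2 1.42.0 is named. Log2 CPM had a prior count of 2. TPM used the exon lengths of the table. Tests were checked on simulated data. The alternatives were 9 settings and 12 fits that each left out 1 library. Named were the 3 members throughout, up to 3 called genes of each list by smallest p, a fixed set of 16 genes, markers, and the 5 genes most like each member (Pearson r, mean log2 CPM above 1), of which 1 is not reported here. Part of the fixed set is not printed. Members and lists were chosen with earlier results of these data known.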

Additional observations from a re-analysis of the deposited data

How the results depend on the processing

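Over 21 alternatives, Cidea and Cidec passed the threshold in HFD vs NC in all 21. The labels do not say whether library numbers pair samples across groups. For 9 same-number pairs, deviations from the group means had r from -0.497 to 0.161, with 2 over 0.1. These values cannot settle whether samples were paired, so a fit with the number as a replicate block is given as an alternative. With the replicate block, Cidec in HFD+AE vs HFD no longer passed (-2.17, adjusted p = 0.0571) and Cidea there did (-4.42, 0.0413). In HFD vs NC the block ended the calls of Pparg, Ppara, Srebf1, Hnf4a, Plin4, Abhd5, Lpin1, Mttp, Sec24d, Cfd, Fabp4 and B430212C06Rik (adjusted p from 0.0529 to 0.365). Cidea in HFD+AE vs HFD also passed without TMM (-4.25), without the low-count filter (-4.04), with the length trend (-3.67) or the length and GC trends removed (-3.62), without HFD+AE 3 and HFD+RE 3 (-3.72), with only the 2 groups compared (-4.06) and with DESeq2 (-4.08). Cidec in HFD+RE vs HFD passed without the filter (-1.79) and with DESeq2 (-1.80), as did Cidea there with DESeq2 (-2.84). Cidea in HFD+RE vs NC passed without HFD+AE 3 and HFD+RE 3 (3.41) and with DESeq2 (3.06), and Cideb in HFD vs NC with length and GC trends removed (-0.57). Values near 0 changed sign: Cideb in HFD+RE vs NC without TMM (0.013) and without HFD+AE 3 and HFD+RE 3 (0.016), Cideb in HFD+RE vs HFD+AE without those libraries (0.0010), and Cidec in HFD+RE vs NC with length and GC trends removed (-0.10). The cause was not tested.

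With 1 library left out, log2 changes ran from -5.40 to -3.63 (Cidea) and -2.37 to -1.88 (Cidec) in HFD+AE vs HFD, from -1.94 to -1.45 (Cidec) in HFD+RE vs HFD, from 2.08 to 3.70 (Cidea), -0.092 to 0.041 (Cideb) in HFD+RE vs NC, and from -0.39 to 0.077 (Cidec) in HFD+AE vs NC. The Cidec share in HFD+RE less NC ran from -0.15 to 4.04 percentage points. The count of all genes called ranged from 325 with the block to 6258 without HFD+AE 3 and HFD+RE 3 in HFD vs NC (2851 as reported), from 0 without HFD 1 to 4253 in HFD+AE vs HFD (9), from 1 to 186 in HFD+RE vs HFD (2), from 0 to 4170 in HFD+RE vs HFD+AE (0), from 1 to 781 in HFD+AE vs NC (253) and from 15 to 5989 in HFD+RE vs NC (724). List counts in HFD vs NC ranged from 0 to 6 (regulators, 4 as reported), 1 to 7 (coats, 3), 0 to 3 (lipolysis, 1), 1 to 9 (synthesis, 7) and 1 to 10 (export, 6). The low Cidea counts in NC limit the precision of its ratios.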
